A study of Mus musculus with 3 samples.

Results

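The imprinted domain that holds H19, Igf2, Ins2, Kcnq1, Kcnq1ot1, Cdkn1c and Phlda2 was followed in the di-tags of 3 mouse Capture Hi-C (CHi-C) libraries. A di-tag is a pair of sequence reads from DNA ends that were ligated, as a rule because they lay close together in the fixed nucleus. Chance ligations of unrelated fragments also give di-tags, above all between chromosomes, and were not told apart from contacts here. A di-tag was a member if at least 1 of its ends lay in mm9 chr7:149700000-150900000, a window set by position and by no measured value. There were 41096 such di-tags among the 26794867 di-tags of the lists with duplicates removed.

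The libraries, named Sample 3, Sample 4 and Sample 5, form 1 group of embryonic stem cells of strain C57BL/6, whose chromatin was crosslinked for 10 min with 2% formaldehyde and cut with HindIII. No treatment, genotype or age distinguishes them, and whether they came from separate cultures is not given, so every SD and sign-flip p-value below measures only the spread between these 3 libraries, which may be technical, while intervals and pair tests within a library cover counting error only. For Sample 3 the labels conflict, with foetal liver cells as the source and embryonic stem cells as the cell type. The text of the study describes every library used here as made from embryonic stem cells, and contact data do not measure the expression of marker genes. Of the di-tags that join chromosome 7 outside the domain to another chromosome, 3.30% had their other end on chromosome X in Sample 3 against 2.55% and 2.62% in Samples 4 and 5, and 0.0296% on chromosome Y against 0.0646% and 0.0595%. The bearing of these shares on the label of Sample 3 was not tested. Sample 3 also stood apart in its contacts, with 52.0% of the di-tags outside the domain joining different chromosomes against 67.4% in Sample 4 and 71.6% in Sample 5. Values are therefore given for each library, and the means of the main results also without Sample 3. The sources used here do not say which fragments the capture baits were made for.

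In an imprinted domain the copies of a gene from the mother and from the father are used differently, under the control of a region whose methylation is set in the germ line. H19 makes a long non-coding RNA from the maternal chromosome, and its neighbour Igf2 makes a growth factor from the paternal chromosome. They share enhancers, and the insulator protein CTCF binds the control region between them on the maternal chromosome. Ins2 is an insulin gene beside Igf2. In the other cluster Kcnq1 encodes a potassium channel subunit, and Kcnq1ot1 is a long RNA that starts inside Kcnq1, runs antisense to it and is made from the paternal chromosome. Cdkn1c, an inhibitor of cyclin-dependent kinases, and Phlda2, which restrains growth of the placenta, are expressed from the maternal chromosome. The di-tags do not tell the parental copies apart, so every count below is a sum over both.

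No mm9 gene annotation was at hand, so genes were placed only by the limits that name 2 parts of the domain. The H19-Igf2 part was chr7:149700000-149900000, 20 regions of 10 kb, and holds H19, Igf2 and Ins2. The Kcnq1 part was chr7:150250000-150900000, 65 regions, and holds Kcnq1, Kcnq1ot1, Cdkn1c and Phlda2. The 35 regions between them are called the middle segment, and 500 kb on either side of the domain are the flanks. All 23 genes of the domain and its neighbourhood that were looked up were found in the gene table of another build, which was used for order alone. From left to right that order is Ctsd, Lsp1, Tnnt3 and Mrpl23, then H19, Igf2 and Ins2, then Th, Ascl2, Tspan32, Cd81, Tssc4 and Trpm5, then Kcnq1, Kcnq1ot1, Cdkn1c, Slc22a18 and Phlda2, and last Nap1l4, Cars, Osbpl5, Nadsyn1 and Dhcr7. Positions inside the domain are given below as kb from its start at 149700000.

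The domain took a small and similar share of each library. It had 16064 of 9376907 di-tags in Sample 3, or 0.171% with an exact binomial 95% interval of 0.169 to 0.174%. Sample 4 had 12516 of 8596799, or 0.146% (0.143 to 0.148%), and Sample 5 happened to have the same number, 12516 of 8821161, or 0.142% (0.139 to 0.144%). The mean was 0.153% ± 0.0160 (SD, n = 3), and 0.144% without Sample 3. The intervals of Samples 4 and 5 overlapped and that of Sample 3 lay above both. The equal counts were not a shared library: Samples 4 and 5 had 0 domain di-tags in common by the positions and strands of both ends, and Sample 3 shared 2 with Sample 4 and 1 with Sample 5.

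Most domain di-tags led out of the domain. The other end lay on another chromosome in 49.3% of them in Sample 3, 69.4% in Sample 4 and 73.3% in Sample 5. These shares were 2.69 percentage points below that of all other di-tags in Sample 3, and 1.94 and 1.70 points above it in Samples 4 and 5, a mean difference of 0.320 ± 2.61 points (SD, n = 3) with p = 1 by an exact two-sided sign-flip test. The sign of this difference was not the same in all libraries, and its mean was 1.82 points without Sample 3. A trans di-tag could enter the domain by either end, while one with both ends inside counted once. This raises the trans share of the domain, so the difference does not place it above or below the genome's level. Counted by ends, 7916 of 17586 domain ends in Sample 3 belonged to trans di-tags, 8684 of 14154 in Sample 4 and 9169 of 13982 in Sample 5. By that count the trans share of the domain was below that of all other di-tags in each library. Of the domain's di-tags, a further 34.0%, 11.2% and 10.4% reached chromosome 7 beyond the flanks, in the order Sample 3, Sample 4, Sample 5, which is used for all triplets of values from here on.

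Among cis di-tags, with both ends on the same chromosome, those over 1 Mb took a larger share in the domain than elsewhere when each was counted once. A di-tag entered the domain by either end, and one with both ends inside counted once. This raises the share of long di-tags in the domain, so the difference does not show whether the domain reached farther. Of the 8148, 3832 and 3347 cis di-tags of the domain, 1331, 1323 and 1139 joined different 10 kb regions of it. Another 191, 315 and 327 lay in 1 region. Counted for each end inside the domain, the share over 1 Mb was below that elsewhere in each library. With each di-tag counted once, distances over 1 Mb made up 67.9%, 37.1% and 38.8% of the cis di-tags of the domain against 61.8%, 31.7% and 32.1% elsewhere. The difference was 6.08 ± 0.660 points (SD, n = 3), 6.03 without Sample 3, with the same sign in 3 of 3 libraries. The exact sign-flip test gave p = 0.25, the smallest that 3 libraries allow, so this test cannot pass a threshold of 0.05 here.

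Contacts inside the domain, between different 10 kb regions, were 8.29%, 10.6% and 9.10% of the domain's di-tags, or 1331, 1323 and 1139 di-tags. The flanks within 500 kb took another 7.25%, 6.35% and 4.62%. These numbers set the depth of what follows. Of the 6670 pairs of domain regions at least 50 kb apart, 680, 528 and 447 had any di-tag, and 62 had 1 in each of the 3 libraries.

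Di-tag ends were dense over the domain and concentrated in few regions. A 10 kb region had on average 147, 118 and 117 ends, 1.88, 1.65 and 1.59 times the mean of all regions with an end in that library. The H19-Igf2 part was the densest, at 2.61, 2.61 and 2.45 times that mean, followed by the middle segment at 1.91, 1.53 and 1.51 and the Kcnq1 part at 1.63, 1.42 and 1.37. Of the 120 domain regions, 31, 29 and 29 were among the 10% of the genome with most ends, and in the H19-Igf2 part 10, 9 and 9 of 20 were. At the other end 5 regions, 2 of the middle segment and 3 of the Kcnq1 part, had 0 ends in all 3 libraries, where a count of 0 allows up to 3 ends.

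The most covered region of the H19-Igf2 part was chr7:149760000-149769999, at 60 kb, with 818, 578 and 575 ends. It was followed by the regions at 180 kb (436, 383 and 384 ends) and 150 kb (378, 418 and 364). In the middle segment the region at 410 kb, chr7:150110000-150119999, led the whole domain in each library, with 990, 708 and 792 ends. The region that opens the Kcnq1 part, chr7:150250000-150259999 at 550 kb, had 986, 503 and 417 ends, and was followed by those at 960 kb (436, 329 and 335) and 580 kb (376, 355 and 290).

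**Figure D1:**
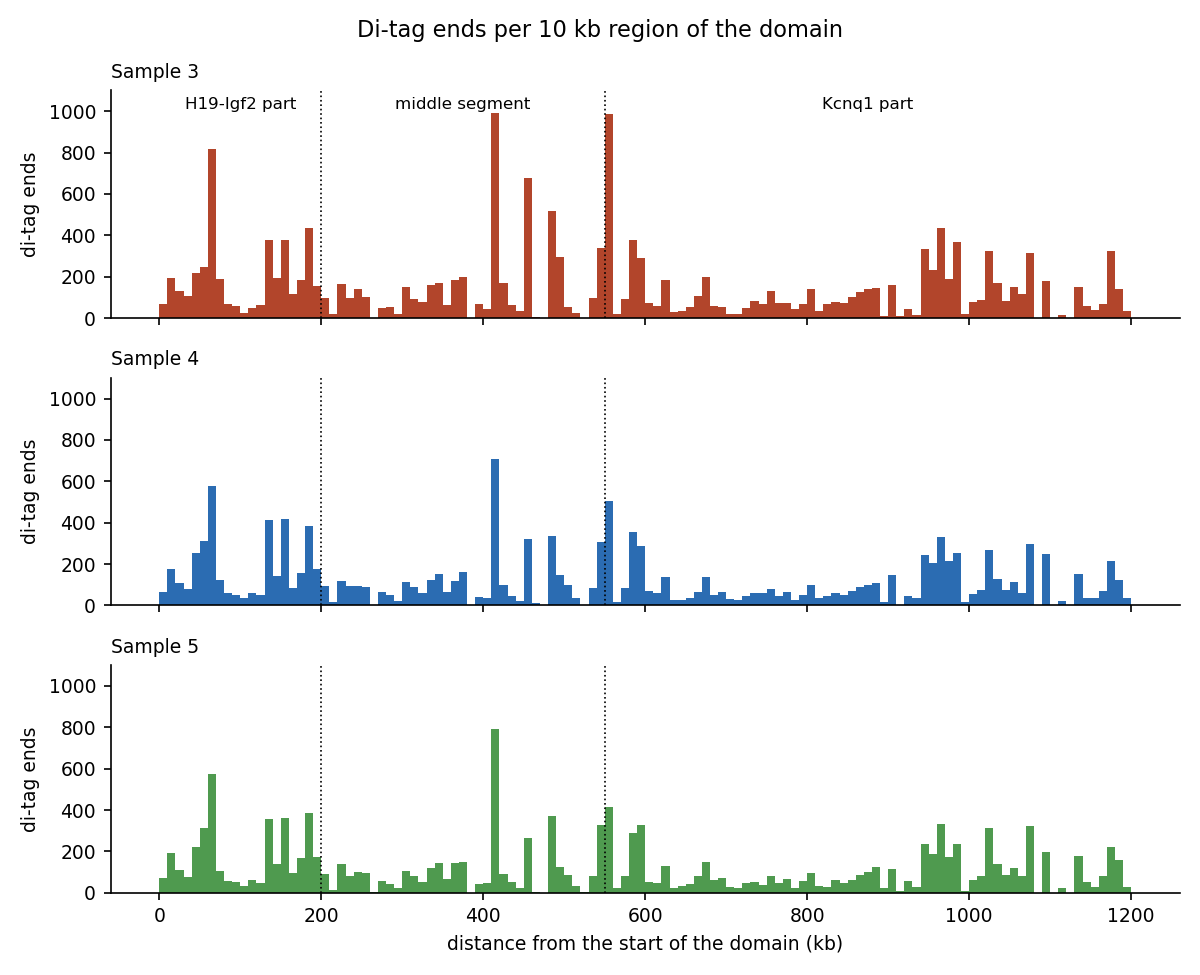
Di-tag ends (y axis, counts) in each 10 kb region along the domain (x axis, kb from its start), 1 panel per library, with dotted lines at the limits of the middle segment. The same few regions stand out in each panel, led by those at 60, 410 and 550 kb, and the regions at 450 and 550 kb are taller in Sample 3 than in the other libraries.

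The profile of ends was nearly the same in the 3 libraries. Over the 120 regions, which share a capture and so are a description without a test, Pearson's r was 0.945 between Samples 3 and 4, 0.931 between Samples 3 and 5 and 0.986 between Samples 4 and 5, with Spearman's rho of 0.968, 0.965 and 0.988. The regions that stood highest in Sample 3 relative to the other libraries lay at 450 kb, with 675, 321 and 264 ends, at 490 kb, with 294, 145 and 127, and at 550 kb. As a share of all ends of the library, Sample 3 had 2.14 times the mean of the other libraries at 450 kb, 2.01 times at 490 kb and 1.99 times at 550 kb, against 0.897 to 1.36 times at the other 7 of the 3 most covered regions of each segment. The region at 490 kb is not among those and was chosen after its values were seen.

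Because coverage and distance set most of what a contact count can be, each count was compared with an expected count. This was the product of the ends in both regions and the mean contact frequency at that distance, taken from all chromosomes of the same library. A ratio of observed over expected di-tags of 1 means as many contacts as the genome's mean frequency at that distance gives for this product. The expected count takes contacts to rise in proportion to the product at every level of coverage, which was not tested. Intervals on these ratios are exact Poisson 95% intervals of the observed count.

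The H19-Igf2 part had fewer internal contacts than its coverage and distances gave, as had its neighbours, and the Kcnq1 part had more in Samples 4 and 5. Within the H19-Igf2 part the ratios were 0.694, 0.779 and 0.830, a mean of 0.768 ± 0.0688 (SD, n = 3) or 0.805 without Sample 3, and none of the 3 intervals reached 1. Internal contacts were also below 1 in all 3 libraries in the left flank, at 0.725, 0.812 and 0.882, in the middle segment, at 0.770, 0.851 and 0.906, and in the right flank, at 0.868, 0.804 and 0.863, so the shortfall was not particular to the H19-Igf2 part. Within the Kcnq1 part they were 1.01, 1.24 and 1.25, a mean of 1.17 ± 0.134 (SD, n = 3) or 1.24 without Sample 3. The log2 ratio of the H19-Igf2 part was lower than that of the Kcnq1 part by 0.55, 0.67 and 0.59 in the 3 libraries, with a mean difference of -0.60 ± 0.061 (SD, n = 3). The exact sign-flip test gave p = 0.25 for it, the smallest possible. The parts did not overlap in any library. From the H19-Igf2 part over the middle segment to the Kcnq1 part, coverage fell and the internal ratios rose in each library. What part coverage had in these ratios was not tested.

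By the mean over the libraries, contacts were scarcest between the H19-Igf2 part and the middle segment, although contacts within the H19-Igf2 part were lower in Sample 3 and those between the H19-Igf2 and Kcnq1 parts lower in Sample 4. Between the H19-Igf2 part and the middle segment the ratios were 0.725, 0.674 and 0.593, with a mean of 0.664 ± 0.0667 (SD, n = 3) or 0.634 without Sample 3. Between the middle segment and the Kcnq1 part, on the other side, they were 0.990, 0.980 and 1.03, with a mean of 0.999 ± 0.0257 (SD, n = 3) or 1.004 without Sample 3. The difference in log2 was -0.45, -0.54 and -0.79, a mean of -0.59 ± 0.18 (SD, n = 3, exact sign-flip p = 0.25) or -0.67 without Sample 3. With only the di-tags whose reads both lie on the plus strand this difference was -0.46, 0.02 and -0.19, a mean of -0.21. The mean log2 ratio of the H19-Igf2 part with the middle segment was then -0.51 against -0.60. Between the H19-Igf2 and Kcnq1 parts it was -0.57 against -0.41, which is the lower value with these reads. That subset holds fewer di-tags, and what part the orientation of the reads had in the change was not tested. Towards the left flank the H19-Igf2 part had ratios of 0.778, 1.102 and 1.08, below 1 in Sample 3 alone. The matching values of the Kcnq1 part towards the right flank were 1.04, 0.875 and 0.840, above 1 in Sample 3 alone. The middle segment with the left flank also had ratios below 1 in each library, at 0.789, 0.880 and 0.683, a mean of 0.784, although the interval of Sample 4 reached 1.

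Contacts between the H19-Igf2 and the Kcnq1 parts were few. There were 93, 37 and 42 di-tags, and the ratios were 0.842, 0.579 and 0.872, with a mean of 0.765 ± 0.161 (SD, n = 3) or 0.726 without Sample 3. All 3 were below 1, but the intervals of Samples 3 and 5 reached past 1, and the exact sign-flip test on log2 gave p = 0.25. Of the 1300 pairs of regions that join the parts, 81, 36 and 41 had any di-tag, and no pair had more than 3. None had 1 in all 3 libraries. So few pairs were seen in each that unrelated libraries would also share almost none, and no conclusion is drawn from this. The pair at 60 and 820 kb had 1, 2 and 0 di-tags, and the pairs at 180 and 860 kb and at 190 and 550 kb had 3 each in Sample 3 and 0 in the other libraries.

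**Figure D2:**
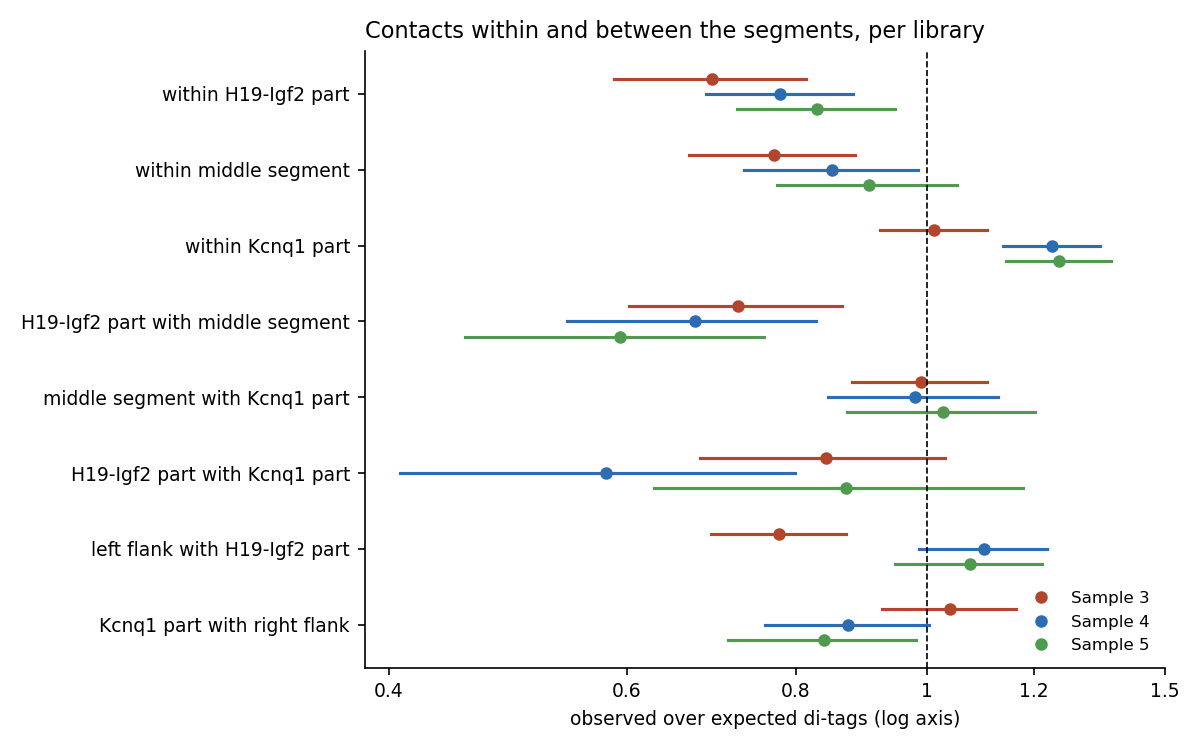
Observed over expected di-tags (x axis, log scale) for contacts within and between the segments of the domain and with the nearer flank (rows), as a point per library with its exact Poisson 95% interval; the dashed line marks 1. Contacts within the H19-Igf2 part and between it and the middle segment lie left of the line in every library, while those of the middle segment with the Kcnq1 part sit on it.

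The contacts within each part were also split by distance. In the H19-Igf2 part the shortfall was clearest at 10 to 50 kb, with ratios of 0.770, 0.721 and 0.762 and a mean of 0.751 ± 0.0263 (SD, n = 3) or 0.741 without Sample 3. At 100 to 200 kb its libraries spread from 0.485 in Sample 3 to 1.27 in Sample 5, on 16 to 34 di-tags. The H19-Igf2 part is 200 kb long and has no pairs at 200 to 400 kb, so the parts cannot be compared at that distance. In the Kcnq1 part the mean ratio was highest at 200 to 400 kb. There, 89, 88 and 79 di-tags stood against 77.2, 51.8 and 40.7 expected, ratios of 1.15, 1.70 and 1.94. The mean was 1.60 ± 0.404 (SD, n = 3) or 1.82 without Sample 3, with intervals above 1 in Samples 4 and 5 and one from 0.926 to 1.42 in Sample 3. At 50 to 100 kb the same part had ratios of 0.968, 1.02 and 1.04. Short contacts of 10 to 50 kb were also in excess there in Samples 4 and 5. Their ratios were 0.941, 1.28 and 1.19, with intervals above 1 in Samples 4 and 5.

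**Figure D3:**
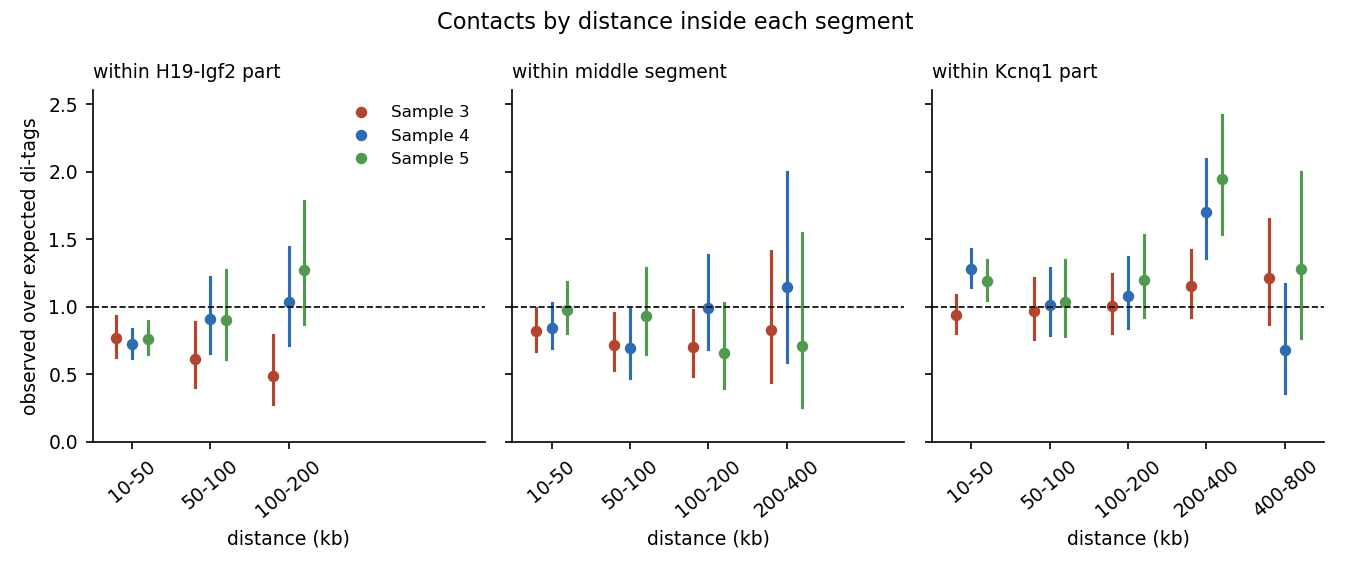
Observed over expected di-tags (y axis) by the distance between the contacting 10 kb regions (x axis, kb) within the H19-Igf2 part, the middle segment and the Kcnq1 part, as a point per library with its exact Poisson 95% interval. The 10 to 50 kb points of the H19-Igf2 part lie at 0.721 to 0.770, and the 200 to 400 kb points of the Kcnq1 part rise from 1.15 in Sample 3 to 1.94 in Sample 5.

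Where contacts were scarce and where they were dense was then traced along the domain. At each of 121 positions, 10 kb apart, the di-tags that joined the 200 kb on its left to the 200 kb on its right were divided by their expected number. This crossing ratio is low at a place that contacts seldom span. It was below 1 in all 3 libraries at 25 consecutive positions, from 140 to 380 kb, which covers the right end of the H19-Igf2 part and the left of the middle segment. The lowest mean lay at 290 kb, in the middle segment, with ratios of 0.498, 0.662 and 0.430 and a mean of 0.530 ± 0.119 (SD, n = 3) or 0.546 without Sample 3. The lowest points of the single libraries lay at 340, 250 and 360 kb, at 0.428, 0.483 and 0.407.

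At the limit of the H19-Igf2 part itself, 200 kb, the crossing ratios were 0.879, 0.819 and 0.719, and at the start of the Kcnq1 part, 550 kb, they were 0.775, 0.962 and 1.07. The minimum therefore fell on neither limit. A second, shorter run below 1 in all 3 libraries lay inside the Kcnq1 part from 970 to 1020 kb, with means down to 0.637.

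The longest run above 1 in all 3 libraries was 18 positions of the Kcnq1 part, from 760 to 930 kb. Its highest mean was 2.07 ± 0.654 (SD, n = 3) at 790 kb, with ratios of 1.33, 2.29 and 2.58. Sample 3 was the lowest of the 3 there and the mean without it was 2.43. With windows of 100 kb the ratios at this position were 0.796, 1.57 and 1.16, lower than with 200 kb in every library and below 1 in Sample 3.

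The extremes, each 1 of the 121 positions of the domain, or 0.826%, were set against all positions of the genome. Of 144507 positions with at least 10 expected di-tags in each library, 1.09% had a mean crossing ratio as low as the lowest of the domain and 0.562% had a mean as high as its highest. Of the 121 positions of the domain, 18 had a mean below the genome's 5th percentile of 0.664, or 14.9% of them, and 11 had a mean above its 95th percentile of 1.62, or 9.09%. Positions below 1 in all 3 libraries were 38 of 121 in the domain, or 31.4%, against 20.3% in the genome, and positions above 1 in all 3 were 27, or 22.3%, against 29.4%. Neighbouring positions share most of their di-tags and are not independent, so no test was made of these shares.

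**Figure D4:**
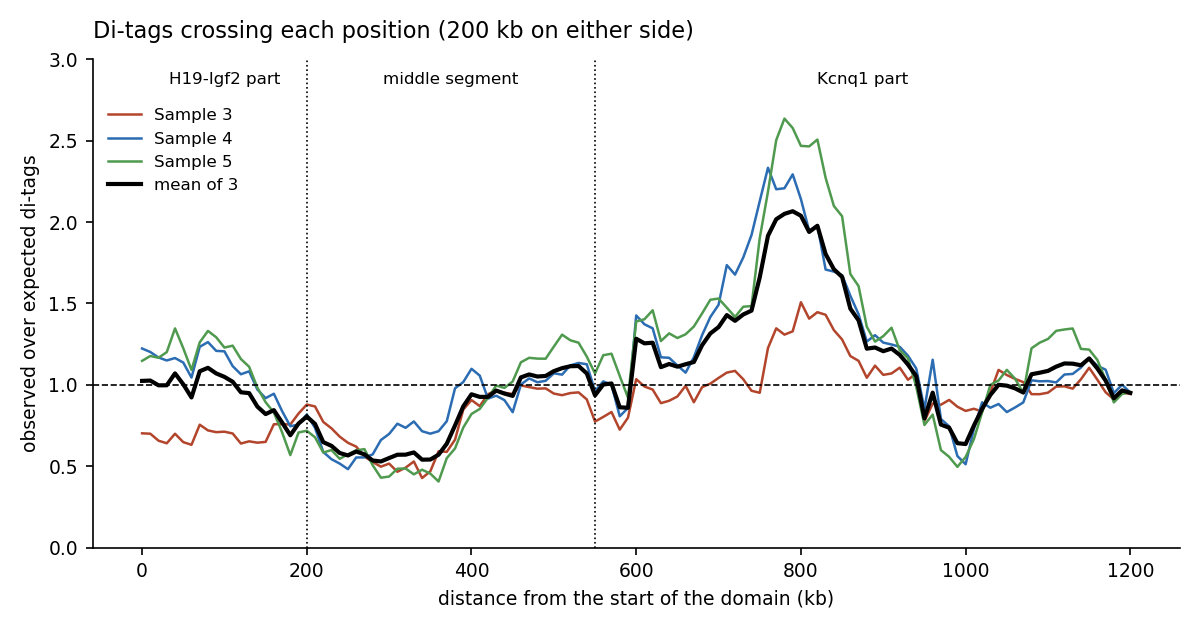
Observed over expected di-tags that span each position (y axis) along the domain (x axis, kb from its start), counted between the 200 kb on either side, for each library and their mean; the dotted lines are the limits of the middle segment. All 3 libraries dip below 1 from 140 to 380 kb and rise above it from 760 to 930 kb, where Sample 3 rises least.

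The map of 50 kb windows shows where in the Kcnq1 part the long contacts fell. Of the 276 pairs of windows of the domain, 5 had a ratio over 1.5 in all 3 libraries, and 3 of these joined windows from 600 to 700 kb with windows from 900 to 1000 kb. The 5 were 1.81% of the pairs, against 3.07% in the genome at the same distances, so such pairs were not more frequent in the domain. The genome's shares in this paragraph are matched for distance and not for coverage, which is higher in the domain. The part of coverage in these comparisons was not tested. Ratios over 1 in all 3 libraries were had by 32 pairs and ratios under 1 by 68, or 11.6% and 24.6% against 7.28% and 40.6% in the genome, and within the Kcnq1 part 14 pairs were over and 16 under. The pair of chr7:150300000-150349999 and chr7:150650000-150699999 had 8, 11 and 8 di-tags against 2.91, 2.02 and 1.34 expected. Its ratios were 2.75, 5.44 and 5.96, a mean of 4.72 ± 1.72 (SD, n = 3). The neighbouring pair of chr7:150300000-150349999 and chr7:150600000-150649999 had 4, 3 and 5 di-tags and ratios of 2.68, 2.69 and 6.70.

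Taking the block as a whole, chr7:150300000-150449999 and chr7:150600000-150699999 shared 30, 32 and 32 di-tags against 14.3, 10.5 and 7.70 expected, ratios of 2.10, 3.04 and 4.16. The mean was 3.10 ± 1.03 (SD, n = 3), and 3.60 without Sample 3. The block was drawn after the map was seen, so these values describe it and are not a test. Without the right-hand region with most di-tags in each library the ratios were 1.92, 2.29 and 3.47, and without the left-hand region with most they were 2.05, 2.82 and 3.85. On the right side, summed over the libraries, the regions at 940, 960 and 980 kb gave 28, 23 and 19 di-tags against 5.88, 7.43 and 5.47 expected, and the region at 970 kb gave 3 against 3.71. With both reads on the plus strand the block had 13, 4 and 7 di-tags and ratios of 3.71, 1.29 and 3.47.

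**Figure D5:**
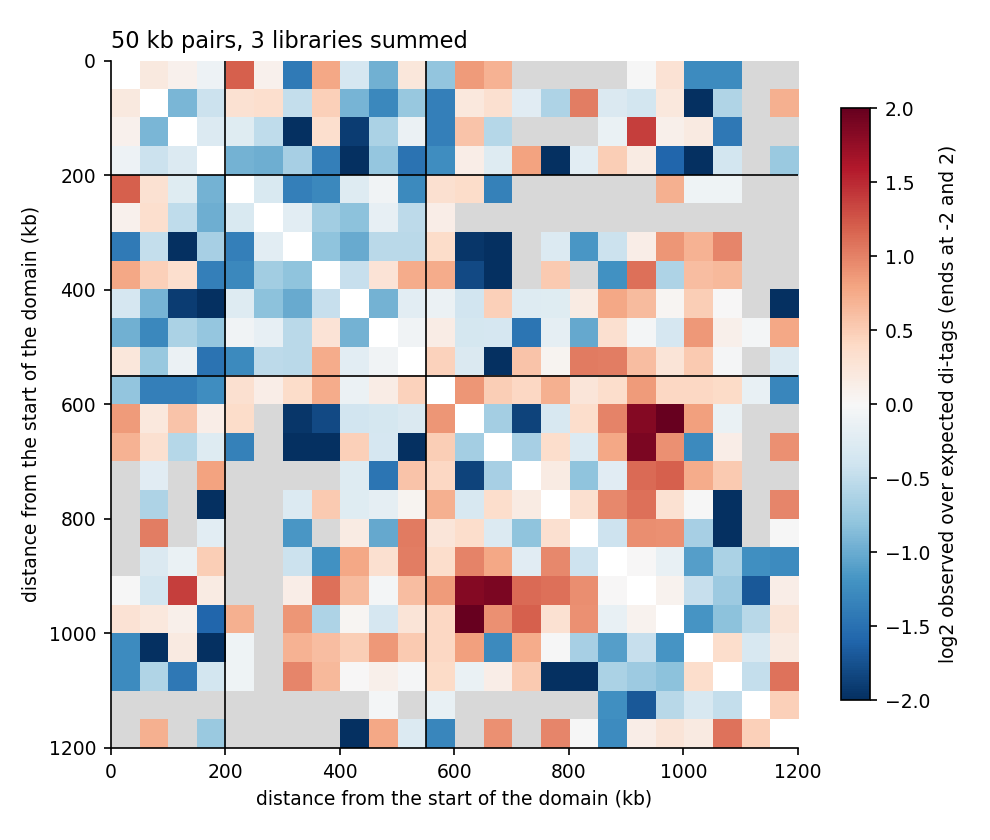
Log2 of observed over expected di-tags (colour, red above and blue below expectation, ends of the scale at -2 and 2) for pairs of 50 kb windows of the domain (both axes, kb from its start), with the 3 libraries summed; black lines are the limits of the middle segment, grey pairs had under 2 expected di-tags, and pairs on the diagonal are left white. The reddest cells of the Kcnq1 part join 600 to 750 kb with 900 to 1000 kb, and blue cells fill much of the square between the H19-Igf2 part and the middle segment.

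Single pairs of windows seldom passed a test of their own. An exact Poisson test against coverage and distance, with Benjamini-Hochberg adjustment across every 50 kb pair of the genome up to 1.2 Mb apart, called 0 of the 276 pairs in Sample 3, 2 in Sample 4 and 1 in Sample 5 at an adjusted p under 0.05. In the genome it called 0.0522%, 0.174% and 0.123% of possible pairs. The unadjusted p was under 0.05 for 13, 15 and 20 domain pairs, or 4.71%, 5.43% and 7.25% of them, against 3.08%, 3.53% and 3.07% of pairs in the genome. The pair at 600 and 950 kb was called in Sample 4 with an adjusted p of 0.0109 by the exact Poisson test, and had adjusted p = 0.9495 in Sample 3 and 0.0593 in Sample 5. The other pair called in Sample 4 joined the neighbouring windows at 550 and 600 kb, with 45 di-tags and an adjusted p of 0.000181. The pair called in Sample 5 joined 1050 and 1150 kb, with 21 di-tags and an adjusted p of 0.00235, where Samples 3 and 4 had 7 and 13. None of the calls was shared by 2 libraries.

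At 10 kb the same test called 0 domain pairs in every library, with 69, 70 and 74 at an unadjusted p under 0.05, or 1.09%, 1.09% and 1.13% of possible pairs, and smallest adjusted p-values of 1, 0.171 and 0.0778. In the genome 0.000259%, 0.000931% and 0.000988% of pairs were called, and 0.318%, 0.298% and 0.254% had an unadjusted p under 0.05. Only pairs with at least 2 di-tags were tested, and the part of the domain's higher coverage in these shares was not tested.

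A test on coverage alone, a cumulative binomial test that takes no account of distance, called 97, 130 and 112 domain pairs of 10 kb regions, or 1.53%, 2.02% and 1.71% of the possible pairs. In the genome 0.404%, 0.52% and 0.428% of pairs up to 1.2 Mb apart were called. At the genome's rate of calls at each distance the domain would have had 46.7, 63.6 and 53.8 calls, so it had about 2 times as many. Coverage in the domain was 1.59 to 1.88 times the genome's mean, and its part in this excess was not tested.

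Calls on coverage alone that all 3 libraries had in common were mostly short. Of 228 pairs called in any library 29, or 12.7%, were called in all 3, against 10.3% of such pairs in the genome. Of the 29, 18 joined neighbouring regions, 2 were at least 50 kb apart and the farthest spanned 100 kb. By segment, the 29 were 10 within the H19-Igf2 part, 4 within the middle segment, 12 within the Kcnq1 part and 3 between the middle segment and the Kcnq1 part. None of them joined the H19-Igf2 part to the middle segment or to the Kcnq1 part, where 7 and 2 pairs were called in any library. The H19-Igf2 and Kcnq1 parts lie 350 kb apart, farther than any shared call spanned. In the genome only 0.233%, 0.156% and 0.0961% of pairs 200 to 400 kb apart were called. The absence of shared calls between the parts therefore says nothing about them. The split by segment was not set against the possible pairs or the genome's rate at those distances.

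The pairs with most di-tags over at least 50 kb centred on the start of the Kcnq1 part. The regions at 450 and 550 kb shared 5, 9 and 3 di-tags and those at 490 and 550 kb shared 7, 4 and 3, and both pairs were called on coverage alone in all 3 libraries. Against coverage and distance neither was, with an adjusted p of 1 throughout. The expected counts of the first pair were 10.0, 2.94 and 1.66, so Sample 3 had fewer di-tags than expected and the other libraries had more. Of the other named pairs, 480 and 550 kb and 410 and 550 kb were called on coverage in 2 libraries, and 410 and 580 kb in 1.

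The most covered region of each segment was also followed on its own. The region at 60 kb had 46, 63 and 53 di-tags with the rest of the H19-Igf2 part, ratios of 0.594, 0.632 and 0.635. Its leading partner at 50 kb or more was the region at 160 kb, with 2, 2 and 4 di-tags. The region at 410 kb had 14, 3 and 5 with the H19-Igf2 part, ratios of 0.504, 0.155 and 0.297 with all 3 intervals below 1, and 51, 21 and 24 with the Kcnq1 part, ratios of 1.01, 0.743 and 0.973. It was also low with the rest of its own middle segment, at 0.770, 0.692 and 0.732 with all 3 intervals below 1, and with the left flank, at 0.513, 0.563 and 0.459, where the interval of Sample 4 reached 1. The region at 550 kb had 9, 2 and 3 di-tags with the H19-Igf2 part, ratios of 0.455, 0.225 and 0.525, where the interval of Sample 5 reached past 1. Its ratios with its own part were 0.801, 0.956 and 1.23, with every interval reaching 1.

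Outside the domain the leading partners on chromosome 7, ranked by the smallest count over the libraries, lay in the flanks. The region chr7:150950000-150959999, 50 kb beyond the right end, shared 59, 43 and 39 di-tags with the domain, and chr7:149610000-149619999, 90 kb before the left end, shared 50, 36 and 47. The region chr7:149690000-149699999, which adjoins the left end, shared 59, 58 and 35. Beyond the flanks the leading region was chr7:149170000-149179999, with 44, 12 and 9. Each of these regions is itself rich in ends, with 533 to 936 per library.

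Contacts with other chromosomes were spread thinly. The 7916, 8684 and 9169 trans di-tags reached 7550, 8357 and 8811 different 10 kb regions, and no region took more than 6. The region that led by its smallest count over the libraries, chr11:3050000-3059999, had 2, 4 and 6, and held 5362, 6637 and 6957 ends.

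Duplicates were more frequent in the domain than elsewhere. Each distinct di-tag of the domain stood for 7.60, 6.42 and 5.97 lines in the lists with duplicates retained, against 7.24, 5.72 and 5.20 for all other di-tags. The ratio of domain to other was 1.11 ± 0.0513 (SD, n = 3), 1.13 without Sample 3, above 1 in 3 of 3 libraries with p = 0.25 by the exact sign-flip test. Within the domain the H19-Igf2 part had the most copies, at 8.54, 7.42 and 6.96, and the middle segment the fewest, at 7.18, 5.49 and 5.08.

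The orientation of read pairs inside the domain depended on distance. At 10 kb or more each of the 4 strand combinations held 19.8 to 27.2% of the di-tags. Under 10 kb, pairs with both reads on the same strand were in excess, with 33.3%, 43.5% and 38.7% plus-plus and 37.3%, 32.8% and 34.6% minus-minus. The minus-plus pairs were down to 12.04%, 9.83% and 11.9%. Of the 324, 519 and 538 di-tags under 10 kb, 191, 315 and 327 had both ends in 1 region and did not enter the ratios above. The rest joined neighbouring regions and entered the ratios that include such regions.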

How the data were processed

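Each line of the deposited lists gives the position and strand of both ends of a di-tag, and the measure is the count of lines. The authors cut reads at the ligation site, mapped both reads, kept unique pairs and filtered artefacts with HiCUP. They deposited 1 list per library before and 1 after de-duplication. Per the labels, the submitters' processing notes name Bowtie 1.1.0 and genome build mm9. Members and lists were chosen with earlier results of these data known.

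Python 3.11.15, NumPy 2.4.6 and SciPy 1.17.1 were used on regions of 10 kb and 50 kb cut from position 0. Contact counts leave out di-tags inside 1 region, which still count as coverage. Pairs with at least 2 di-tags were tested by a cumulative binomial (coverage) or Poisson (coverage and distance) test, with Benjamini-Hochberg adjustment over all possible covered pairs of the genome. Both procedures were checked on simulated data with the coverage of Sample 3 and 10 di-tags added to each changed pair, which does not cover detection at smaller counts. Named were the 3 most covered regions of each segment, the 5 pairs with the highest smallest count over the libraries at 50 kb or more, the 3 leading pairs between the parts, the 3 leading pairs of 50 kb windows and the 3 leading partners of each kind. Alternatives were duplicates, read strand, region size, distance decline, coverage, thresholds, domain limits and leaving out each library.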

Additional observations from a re-analysis of the deposited data

How the results depend on the processing

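The 3 libraries limit the sign-flip test to a smallest p of 0.25, and single 10 kb pairs hold few di-tags. The libraries form 1 group, so no groups could be compared, and differences were taken within each library as its own control. Of 58 values of 11 results under settings other than leaving out a library, 45 stayed within 1 SD of the value given, or within 1.5 times for counts of calls, and 13 moved. The contacts between the parts with pairs at least 50 kb apart are among the 45 and are the same by construction. So are the 0 calls on coverage and distance with at least 3 di-tags or an adjusted p under 0.01, which cannot rise. A mean without 1 of 3 libraries cannot move by 1 SD. The domain share became 0.173% with limits moved outwards by 50 kb. The mean log2 ratio between the parts was -0.41, and became -0.75 with coverage from cis ends. The mean difference of log2 ratios between the parts' own contacts was -0.60. It became -0.68 with coverage from cis ends, -0.53 with regions of 20 kb, -0.52 with pairs at least 50 kb apart and -0.86 with duplicates retained. With pairs at least 50 kb apart the libraries lay wider, at -0.93, -0.30 and -0.34 against -0.55, -0.67 and -0.59. With duplicates retained the mean number of domain pairs called rose from 113 to 470 on coverage and from 0 to 228 on coverage and distance, where copies of a di-tag are counted as separate contacts. The latter count was 1 with regions of 20 kb and 1 with regions of 50 kb.

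Leaving out each library in turn gave means of 0.144 to 0.158% for the domain share, -0.49 to 1.82 points for the trans difference, which changed sign without Sample 4 or Sample 5, -0.52 to -0.22 for the log2 ratio between the parts, -0.63 to -0.57 for the difference within them, 104.5 to 121 calls on coverage and 0 calls on coverage and distance. Settings added after the data were seen covered the crossing ratios, the 50 kb pair and the contacts of the middle segment. The log2 ratio of the H19-Igf2 part with the middle segment, -0.60, became -0.75 with coverage from cis ends, and its difference from the contacts of the middle segment with the Kcnq1 part, -0.59, became -0.21 with both reads on the plus strand. The highest mean crossing ratio, 2.07, became 1.18 with windows of 100 kb and 1.62 with windows of 300 kb. The lowest mean, 0.530, stayed between 0.463 and 0.580 in all settings tried. Single libraries spread more widely, at 0.267, 0.776 and 0.443 with windows of 100 kb. Both positions were picked from the same data and kept fixed. The ratio of the 50 kb pair at 600 and 950 kb, 4.72, ranged from 3.32 with coverage from cis ends to 5.70 without Sample 3. The cause of these shifts was not tested.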
